A study of Homo sapiens with 72 samples.

Results

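Prostaglandin synthesis and signaling was followed through 9 genes: PLA2G4A, PTGS1, PTGS2, PTGES, PTGES2, PTGES3, HPGD, PTGER2 and PTGER4. The 9 were taken by symbol from the GENCODE 44 gene table of the series, which lists 62266 genes. RNA was sequenced from 72 libraries of 3 human cervicovaginal epithelial cell lines under 8 conditions, with 3 libraries in each of the 24 groups. The comparisons asked how the cells respond to live *Gardnerella vaginalis* and whether pretreatment with a polyamine alters that response.

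The 3 lines were Ect/E6E7 from the ectocervix (Ecto), End1/E6E7 from the endocervix (Endo) and VK2/E6E7 from the vagina (VK2), each 1 established line immortalized with papillomavirus E6 and E7 genes, so that all groups carried these genes and all were grown in keratinocyte serum-free medium. Cells received no polyamine (NT), putrescine at 4 mM (PUT), spermidine at 400 µM (SPD) or spermine at 400 µM (SPM) for 4 h. They were then exposed for 24 h to 10000000 colony-forming units of live *G. vaginalis* per well (GV) or to no bacteria (noGV). NT+noGV was the untreated control, NT+GV the control for each polyamine with bacteria, and a polyamine without bacteria was set against NT+noGV. Nothing in the labels states that the 3 libraries of a group came from separate cultures, and the p-values then reflect only how far these libraries differ, which may be technical. Putrescine is a diamine, and spermidine and spermine are a triamine and a tetramine built from it by adding aminopropyl groups.

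Prostaglandins are lipid mediators made on demand from arachidonic acid. Cytosolic phospholipase A2 (PLA2G4A) frees arachidonic acid from membranes, the cyclooxygenases PTGS1 (constitutive in many tissues) and PTGS2 (inducible by cytokines and bacterial products) turn it into prostaglandin H2, and the prostaglandin E synthases PTGES, PTGES2 and PTGES3 convert that into prostaglandin E2. HPGD oxidizes and so inactivates prostaglandins, while PTGER2 and PTGER4 encode EP2 and EP4, the prostaglandin E2 receptors that raise cyclic AMP. In the cervix and vagina the pathway is known for its part in inflammation and in the ripening of the cervix before birth.

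PTGS2 was the member with the largest response to *G. vaginalis* in Endo and VK2 and, narrowly, in Ecto, PTGER4 the one with the largest response to spermine with *G. vaginalis*, and PTGES the one with the largest response to putrescine without bacteria in Ecto and Endo. The 250 bases before their RefSeq start sites are printed here for that reason. The sequences are from RefSeq on GRCh38.p14 and run 5′ to 3′ on the strand of the gene, and capitals mark matches to a motif. PTGS2 lies on chromosome 1 and its stretch, chr1:186680424-186680673 on the minus strand, falls in an intron of 1 GENCODE transcript of PTGS2 and upstream of its other transcripts. The stretches of PTGER4 (chr5:40679665-40679914, plus strand) and PTGES (chr9:129753043-129753292, minus strand) lie directly before the annotated genes.
PTGS2: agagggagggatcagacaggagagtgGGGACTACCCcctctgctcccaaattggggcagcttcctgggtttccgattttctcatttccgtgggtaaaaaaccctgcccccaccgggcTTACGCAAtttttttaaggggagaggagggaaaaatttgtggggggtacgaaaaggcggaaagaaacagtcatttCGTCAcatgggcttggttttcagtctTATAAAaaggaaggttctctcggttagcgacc
PTGER4: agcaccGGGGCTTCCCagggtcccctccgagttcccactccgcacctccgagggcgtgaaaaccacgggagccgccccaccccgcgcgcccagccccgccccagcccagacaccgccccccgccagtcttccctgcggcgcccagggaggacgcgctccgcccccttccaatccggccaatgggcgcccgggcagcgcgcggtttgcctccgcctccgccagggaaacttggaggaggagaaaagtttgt
PTGES: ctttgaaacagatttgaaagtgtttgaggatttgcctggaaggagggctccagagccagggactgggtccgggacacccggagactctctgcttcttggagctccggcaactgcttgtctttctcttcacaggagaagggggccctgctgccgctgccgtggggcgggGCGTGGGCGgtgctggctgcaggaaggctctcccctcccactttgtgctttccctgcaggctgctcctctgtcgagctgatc
The search covered both strands for NF-kB (GGGNN followed directly by TNNCC), C/EBP (TTNNGNAA), the cyclic AMP response element (TGACGTCA) and its core (the letters TGACG), AP-1 (TGANTCA), EGR (GCGNGGGCG), the E-box (CANNTG, not capitalized) and the TATA box (letters TATAAA). Before PTGS2, counting back from the start site, NF-kB letters stood at bases 224 to 215, C/EBP letters at 133 to 126, the core of a cyclic AMP response element on the opposite strand at 58 to 54, overlapping an E-box, and a TATA box at 32 to 27. PTGER4 held the NF-kB letters at bases 244 to 235 and PTGES the EGR letters at 82 to 74 and an E-box at 143 to 138. Members not printed here held some of the same letters. NF-kB letters stood before PTGES3 at 44 to 35, and EGR letters before PTGER2 and PTGES2. Of 35116 RefSeq stretches of the same length, 19.7% held the NF-kB letters, 33.2% the C/EBP letters and 21.2% the cyclic AMP core. The EGR letters stood in 8.41%, the TATA letters in 10.7% and an E-box in 61.8%. A match is a description of letters and not a bound site.

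The libraries held between 20152143 and 42767996 counts, with a median of 31872238.5. The epithelial markers KRT5, CDH1, EPCAM, KRT19 and TP63 were high in all 72 libraries. Of the endocervical glandular markers, MUC5B, TFF3 and PGR were at or near 0 in Endo as in the other lines. PAX8 was highest in Endo, with medians of 12.1, 50.5 and 5.45 CPM in Ecto, Endo and VK2. The squamous markers went against the names of the cervical lines. IVL (involucrin of the cornified envelope) had medians of 0.951, 24.6 and 23 CPM in Ecto, Endo and VK2, and SPRR1B medians of 3.92, 83.6 and 78.2, so the ectocervical line had few transcripts of these genes and Endo stood near VK2. Of the leukocyte markers, PTPRC and CD3E had medians at or under 0.034 CPM in each line and LYZ and ITGAM medians at or under 0.369, whereas CD68, a lysosomal gene not limited to leukocytes, had medians of 62.4, 52.8 and 86.8 CPM and CSF1R of 9.22, 1.25 and 10.2. Levels below are counts scaled to 1000000 per library (CPM) with edgeR's trimmed mean of M values, and as bulk RNA they cannot tell fewer expressing cells from less RNA per cell.

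In untreated cells (NT+noGV) the members spanned a wide range of levels per kilobase of exon, the scale used to set genes against each other. PTGES3, which also acts as a chaperone partner of HSP90, was the highest in every line, at 139 ± 3.37 CPM per kb in Ecto, 97.3 ± 0.615 in Endo and 104 ± 1.32 in VK2 (SD, n = 3). HPGD was the lowest, at 0.158 ± 0.032, 0.305 ± 0.0613 and 0.433 ± 0.103 CPM per kb in the same order. The other members lay between these, and their order was not the same in the 3 lines. In Ecto the second was PTGES2 at 22.5 ± 0.69 CPM per kb, followed by PTGES at 14.4 ± 1.05 and PTGS2 at 9.93 ± 1.28. In VK2 the second was PTGES at 79.4 ± 0.827 CPM per kb, followed by PTGS2 at 20.8 ± 1.3 and PTGES2 at 12.5 ± 0.105. Some neighbours in this order were within their spread: PTGS1 and PLA2G4A in Ecto stood at 3.12 ± 0.116 and 3.16 ± 0.152 CPM per kb, PTGS1 and PTGER2 in Endo at 3.19 ± 0.0494 and 3.19 ± 0.106, and PTGS2 and PTGER4 in Endo at 6.92 ± 0.661 and 7.38 ± 0.358.

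**Figure D1:**
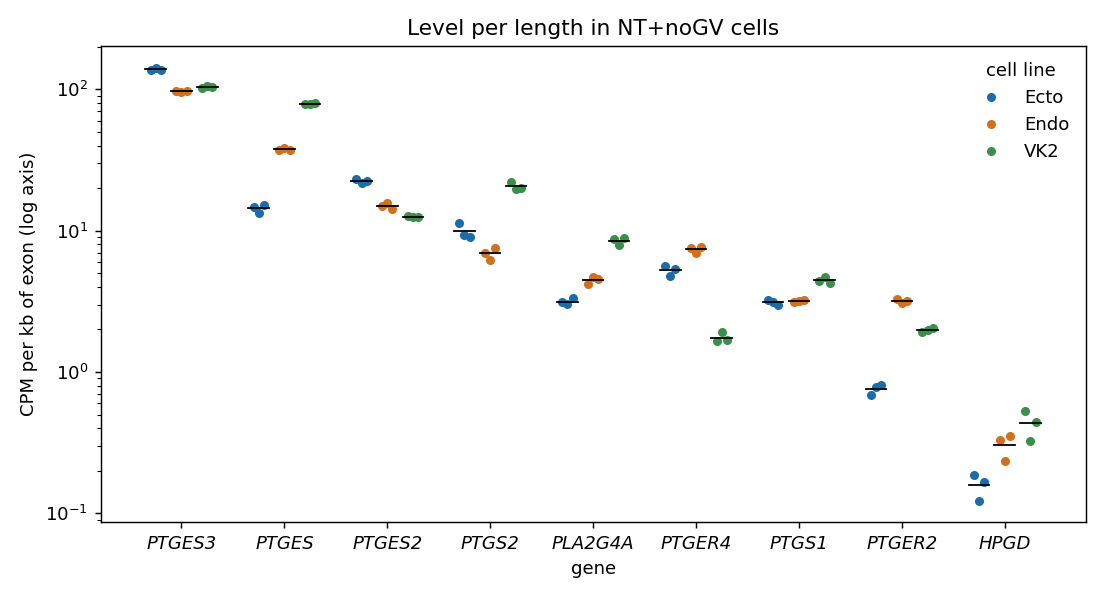
Level of each member in untreated cells (NT+noGV), in CPM per kilobase of exon on a log axis, with 1 point per library, 3 libraries per cell line and a line at the mean. PTGES3 is the highest and HPGD the lowest member in all 3 lines, while PTGES ranges from 14.4 ± 1.05 in Ecto to 79.4 ± 0.827 in VK2.

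The order of the lines differed by gene. In the model of all 72 libraries, tested with edgeR's quasi-likelihood test with Benjamini-Hochberg adjustment, 2 members differed at least 2-fold at an adjusted p under 0.05 between Endo and Ecto in untreated cells (25.8% of the 21195 genes tested did), 6 between VK2 and Ecto (25.5% of genes) and 3 between VK2 and Endo (21.3% of genes). PTGES was higher in VK2 than in Ecto by 2.46 ± 0.051 on the log2 scale (SE, adjusted p = 1.93e-48), with 150.1 ± 1.56 CPM against 27.2 ± 1.98 (SD, n = 3), and Endo stood between them. PTGER2 was higher in Endo than in Ecto by 2.07 ± 0.12 (SE, adjusted p = 1.13e-24). The receptor PTGER4 went the other way in VK2: its level there was lower than in Endo, with a log2 difference of -2.08 ± 0.099 (SE, adjusted p = 1.83e-28). PTGS2 was also higher in VK2 than in Endo (1.59 ± 0.11, adjusted p = 7.02e-18). Its difference between VK2 and Ecto was 1.06 ± 0.11 (adjusted p = 1.46e-12) and fell to 0.99 with no filter on low counts. For PTGS1, the difference between Endo and Ecto did not pass the test.

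Within each line, a member is called changed when its difference was at least 2-fold with an edgeR adjusted p under 0.05 over all genes tested, and rose or fell when the adjusted p alone was under 0.05. All 9 members passed the filter on low counts in all 3 lines. In response to *G. vaginalis* alone, 2 members changed in Ecto (6.47% of 19459 genes), 1 in Endo (9.28% of 18741) and 1 in VK2 (2.24% of 18474), and by adjusted p alone the counts were 6 (44.6% of genes), 7 (54.4%) and 4 (26.4%). With PUT+GV against NT+GV, 1 member changed in Ecto (9.9% of genes), 2 in Endo (8.08%) and 1 in VK2 (11.1%), and 8 (56.3%), 7 (56.1%) and 8 (60.4%) passed by adjusted p alone. With SPM+GV against NT+GV, 2 changed in Ecto (13.5%), 1 in Endo (5.83%) and 4 in VK2 (11.1%), and 5 (56%), 6 (43%) and 6 (58.3%) passed by adjusted p alone. With SPD+GV against NT+GV no member changed in Ecto, Endo or VK2 (0.55%, 0.443% and 0.433% of genes did). In edgeR 3 (13.1%), 4 (13.9%) and 3 (12.7%) had an adjusted p under 0.05. DESeq2 changed no member there either. By unadjusted p the counts were 6, 4 and 4, but without a share of all genes they are not read as a result. The counts of 9 members are read against these shares of all genes. They were small, though the 4 in VK2 with SPM+GV stood beside a share of 11.1%. The members were chosen with earlier results of these data known, so no result about the set is drawn from the counts. The description rests on which genes moved and by how much. The GV and polyamine+GV comparisons of a line share the NT+GV libraries, so that a high NT+GV value moves the first up and the second down.

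Over the 9 members the median log2 change was -0.038, 0.23 and 0.23 in Ecto, Endo and VK2 with *G. vaginalis* alone, beside medians of 0.0029, -0.00089 and 0.0014 over all genes tested. With PUT+GV against NT+GV the medians of the members were 0.19, -0.10 and 0.073, beside 0.075, 0.026 and 0.011 over all genes, and with SPM+GV they were -0.18, 0.049 and 0.068, beside -0.017, -0.012 and -0.017. No list-wide shift is drawn from these medians, since rises of some members stood beside falls of others.

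**Figure D2:**
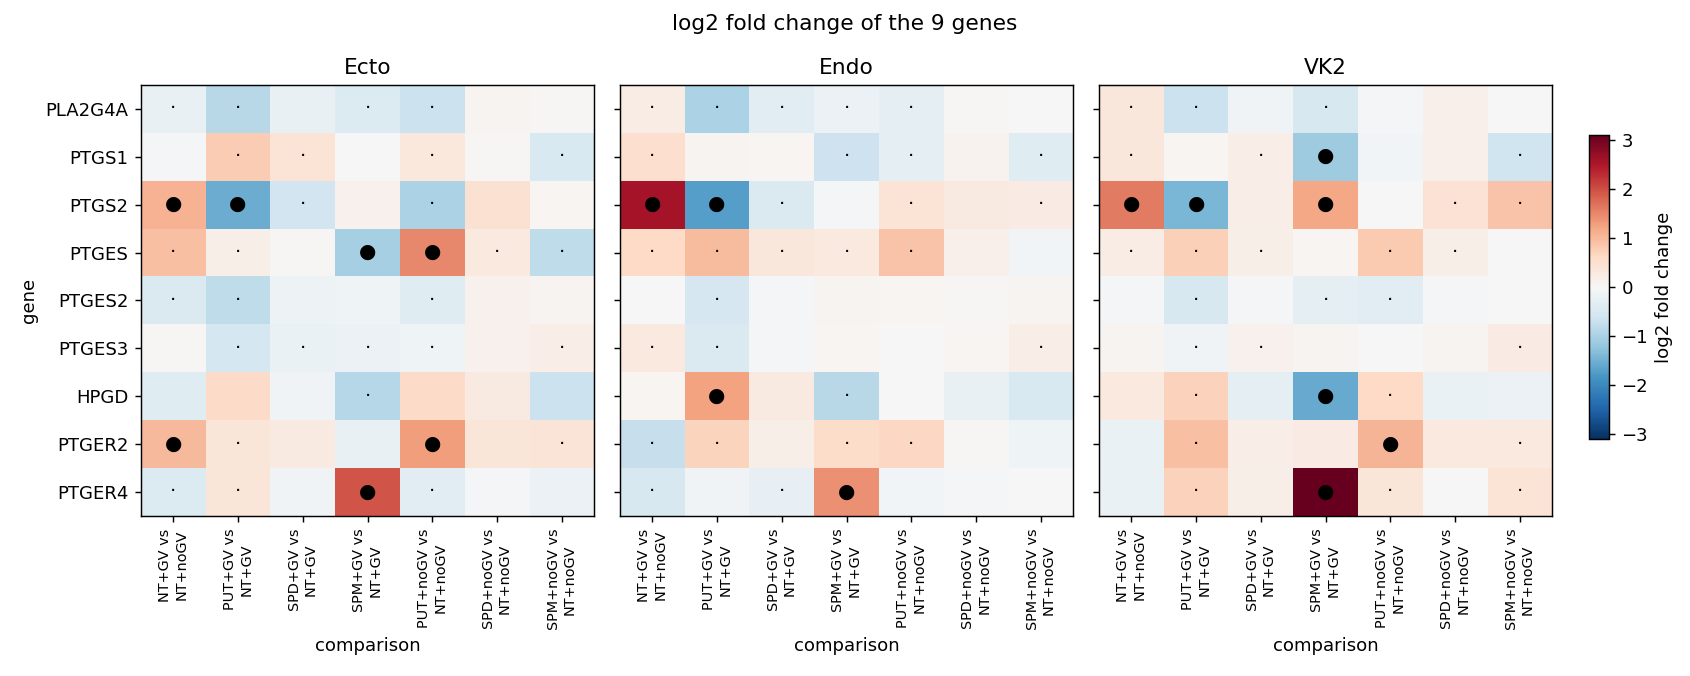
Heat map of the log2 fold change of each member (rows) in each comparison within a line (columns), from edgeR, with a large dot where the member changed (adjusted p under 0.05 and at least 2-fold) and a small dot where only the adjusted p was under 0.05. PTGS2 rises with GV and falls with PUT+GV in all 3 lines, and PTGER4 rises with SPM+GV in all 3.

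Epithelial markers and markers of other cell types and states differed between the same groups, and their part in the results on the members was not tested. The summed level of the 4 squamous markers in Ecto, Endo and VK2 was 3.55 to 3.72, 101 to 105 and 96.5 to 112 CPM in NT+noGV and 7.43 to 7.9, 215 to 237 and 163 to 181 in NT+GV, higher with bacteria in every line. In PUT+GV the squamous sum was 13.2 to 15.2, 225 to 247 and 155 to 214 CPM and in SPM+GV 12.6 to 15.3, 117 to 134 and 68.6 to 77.7, so that with spermine it was above NT+GV in Ecto and below it in Endo and VK2. The summed leukocyte markers, nearly all CD68 and CSF1R, were 54.4 to 55.3, 39.2 to 42.8 and 80.2 to 86.7 CPM in NT+noGV, 74.5 to 74.9, 80.02 to 82.6 and 128 to 138 in NT+GV, 106 to 111, 76.2 to 82.1 and 127 to 140.1 in PUT+GV and 50.2 to 56.2, 56.8 to 62.8 and 82.1 to 85.7 in SPM+GV. The summed fibroblast markers, mostly COL1A1, went from 25.3 to 29.7, 39.6 to 42.9 and 36.7 to 40.6 CPM in NT+GV to 47.6 to 51.8, 63.5 to 70.3 and 65 to 66 in PUT+GV. The summed epithelial markers were 9684 to 10083, 16435 to 16869 and 28554.5 to 29465 CPM in NT+noGV and 6797 to 7166, 11028 to 11878 and 26645 to 29056 in NT+GV. In PUT+GV they were 6156 to 6437, 11256 to 11486 and 26031 to 27821 CPM, and in SPM+GV 6079 to 6363, 10560 to 10996 and 21946 to 22221.

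RNA of PLA2G4A, the phospholipase of the first step, was lower after putrescine and bacteria in all 3 lines. In Endo, PLA2G4A stood at 16.5, 14.8 and 13.8 CPM in NT+GV and at 7.73, 7.88 and 7.12 in PUT+GV, and the groups did not overlap. The fall was 0.98 ± 0.076 on the log2 scale (SE), a ratio of 1.98-fold, with an edgeR adjusted p of 1.91e-12. Ecto and VK2 showed the same direction without overlap. Its level went from 7.86, 8.21 and 7.29 to 4.2, 3.82 and 4.48 CPM in Ecto (log2 -0.85 ± 0.09, adjusted p = 1.25e-08). In VK2 it went from 30.3, 30.9 and 31.3 to 19.97, 19 and 18.8 CPM (log2 -0.67 ± 0.059, adjusted p = 1.36e-11). Without bacteria, putrescine lowered PLA2G4A in the cervical lines. In Ecto it fell from 8.95, 8.73 and 9.57 to 6.21, 5.25 and 5.35 CPM (log2 -0.67 ± 0.086, adjusted p = 4.48e-07). In Endo it fell from 12.2, 13.5 and 13 to 10.5, 11.4 and 10.2 CPM (log2 -0.27 ± 0.075, adjusted p = 0.00571). In VK2 the libraries overlapped without bacteria, at 25.2, 22.9 and 25.4 CPM in NT+noGV and 25.3, 22.4 and 22.9 in PUT+noGV. The interaction of PUT and GV, the change with putrescine in the presence of bacteria minus that in their absence, passed the test for PLA2G4A in Endo at -0.71 ± 0.11 (adjusted p = 3.22e-06) and in VK2 at -0.63 ± 0.083 (adjusted p = 8.41e-07). Spermine with bacteria also gave lower PLA2G4A in all 3 lines. In VK2 SPM+GV held 21.6, 20.9 and 19.9 CPM (log2 -0.50 ± 0.06 against NT+GV, adjusted p = 1.45e-08). In Ecto it held 5.48 to 5.82 CPM against 7.29 to 8.21 in NT+GV, with log2 changes of -0.48 to -0.39 when 1 library was left out. In Endo the fall passed by edgeR adjusted p, a call lost in 3 of 6 refits with 1 library left out.

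Of the cyclooxygenases, PTGS2 rose with *G. vaginalis* in each line, by more than any other member in Endo and VK2. In Endo, PTGS2 was at 38.1, 34.2 and 41.5 CPM in NT+noGV and at 224, 224 and 228 in NT+GV, a 5.96-fold rise (log2 2.58 ± 0.081, edgeR adjusted p = 7.01e-16). In VK2 it went from 122, 109 and 110.4 to 338, 326 and 373 CPM, a 3.08-fold rise (log2 1.62 ± 0.075, adjusted p = 3.46e-12). In Ecto it went from 62.5, 51.1 and 49.7 to 138, 106 and 102 CPM, 2.11-fold (log2 1.08 ± 0.14, adjusted p = 6.91e-06). The groups did not overlap in any line. The first NT+GV library of Ecto was the highest of its group, and without it the log2 change in Ecto was 0.93, under 2-fold with an adjusted p of 3.19e-05. In Ecto the response of PTGER2 was close to that of PTGS2, and it was the larger of them without that library (1.05) and without the third NT+noGV library (1.07 against 1.02).

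Putrescine before *G. vaginalis* brought PTGS2 down in all 3 lines. PUT+GV libraries held 35.7, 37.7 and 41.5 CPM in Ecto, 73.2, 66.8 and 67.8 in Endo and 126, 118 and 147 in VK2, each below all NT+GV libraries of its line. The log2 changes against NT+GV were -1.54 ± 0.15 in Ecto (edgeR adjusted p = 4.93e-08), -1.7 ± 0.076 in Endo (adjusted p = 2.77e-13) and -1.41 ± 0.074 in VK2 (adjusted p = 3.42e-12). The level reached differed by line when set beside the untreated cells: PUT+GV libraries were below the NT+noGV libraries in Ecto, above them in Endo and overlapped them in VK2. Without bacteria, putrescine had no common direction on this gene. PTGS2 fell to 26.8, 26.1 and 28.2 CPM in Ecto (log2 -0.99 ± 0.15, adjusted p = 2.58e-05), rose to 51.2, 48.1 and 52.6 CPM in Endo (log2 0.41 ± 0.084, adjusted p = 0.000747), and was 114, 117 and 107 CPM in VK2, within the range of the NT+noGV libraries but for 1. The interaction of PUT and GV was accordingly -2.11 ± 0.11 in Endo (adjusted p = 5.45e-11) and -1.4 ± 0.11 in VK2 (adjusted p = 1.82e-08). In Ecto it did not pass the test, at -0.55 with a 95% interval of -0.98 to -0.11 (adjusted p = 0.0596), and with DESeq2 it was -0.61 (adjusted p = 0.00491). Among the members, the interaction of PUT and GV changed for 1 in Ecto (3.08% of genes), 2 in Endo (3.51%) and 1 in VK2 (1.87%).

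Spermine acted on PTGS2 in VK2 in the opposite direction to putrescine. VK2 cells in SPM+GV held 718, 774 and 774 CPM, the highest PTGS2 values of all 72 libraries and above every NT+GV library (log2 1.19 ± 0.072 against NT+GV, edgeR adjusted p = 2.84e-11). In VK2 spermine raised PTGS2 without bacteria too, to 207, 202 and 219 CPM (log2 0.90 ± 0.075, adjusted p = 2.42e-08). This was not particular to spermine, since SPD+noGV libraries of VK2 held 146 to 161 CPM against 109 to 122 in NT+noGV. In Endo SPM+noGV held 42.5 to 50.6 CPM against 34.2 to 41.5 in NT+noGV, a call lost with the replicate block. In Ecto the SPM+noGV and NT+noGV libraries overlapped. SPM+GV libraries overlapped NT+GV in the cervical lines, at 112, 132 and 126 CPM in Ecto and 206, 213 and 227 in Endo. The log2 changes there were 0.14 (95% interval -0.15 to 0.44) and -0.057 (-0.21 to 0.092), with edgeR adjusted p of 0.396 and 0.558. Spermidine with bacteria gave 179, 159 and 151 CPM in Endo, below all NT+GV libraries (log2 -0.46 ± 0.072, adjusted p = 0.000247). In Ecto SPD+GV held 77.2, 72.2 and 78 CPM (log2 -0.59 ± 0.14, adjusted p = 0.0101), a call lost without the first NT+GV library (adjusted p = 0.0706) or the second SPD+GV library (0.0523). In VK2 the SPD+GV libraries were at 371, 416 and 411 CPM, with a log2 difference of 0.20 (0.051 to 0.35) that did not pass the test (adjusted p = 0.0753) but did with DESeq2 (adjusted p = 0.0146). The only member whose interaction of SPD and GV changed was PTGS2 in Ecto (0.149% of genes there, 0.101% in Endo and 0.0162% in VK2), at -1.05 ± 0.2 (adjusted p = 0.0114). It was -0.99, -0.90 and -0.91 without the third NT+noGV, the first SPD+noGV or the first NT+GV library, each just under 2-fold.

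PTGS2 shares 219 exon bases, 3.99% of its exon length, with the antisense RNA PACERR on the opposite strand. The library kit keeps strand, and the counts of PACERR came to 0.757% of those of PTGS2.

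PTGS1, the other cyclooxygenase, took a different course. With *G. vaginalis* alone it rose in Endo from 18.2, 18.4 and 18.8 to 27.6, 25.8 and 26.2 CPM (log2 0.53 ± 0.064, edgeR adjusted p = 2.07e-08) and in VK2 from 25.6, 27.1 and 24.7 to 34.2, 32 and 30.8 CPM (log2 0.35 ± 0.059, adjusted p = 3.38e-05), while in Ecto the groups overlapped at 18.7, 18.1 and 17.4 and 17, 16.7 and 19.2 CPM. Spermine lowered PTGS1 in VK2, where PTGS2 rose. SPM+GV libraries of VK2 held 14.5, 15.1 and 14 CPM, less than any NT+GV library (2.13-fold lower, log2 -1.09 ± 0.065, adjusted p = 2.1e-15). In Endo PTGS1 fell with SPM+GV to 17, 16.8 and 17.1 CPM (log2 -0.64 ± 0.064, adjusted p = 1.45e-09). It also fell with spermine in the absence of bacteria in Ecto, Endo and VK2, by 0.47, 0.37 and 0.62 on the log2 scale (edgeR adjusted p = 1.92e-05, 0.000183 and 3.53e-09). Putrescine with bacteria raised PTGS1 in Ecto alone among the lines by the test, from 17, 16.7 and 19.2 to 28.6, 31.3 and 29 CPM (log2 0.80 ± 0.066, adjusted p = 1.27e-10). This response was smaller in Endo and in VK2 than in Ecto, with log2 differences of -0.66 and -0.68 (edgeR adjusted p = 1.77e-08 and 2.48e-09).

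**Figure D3:**
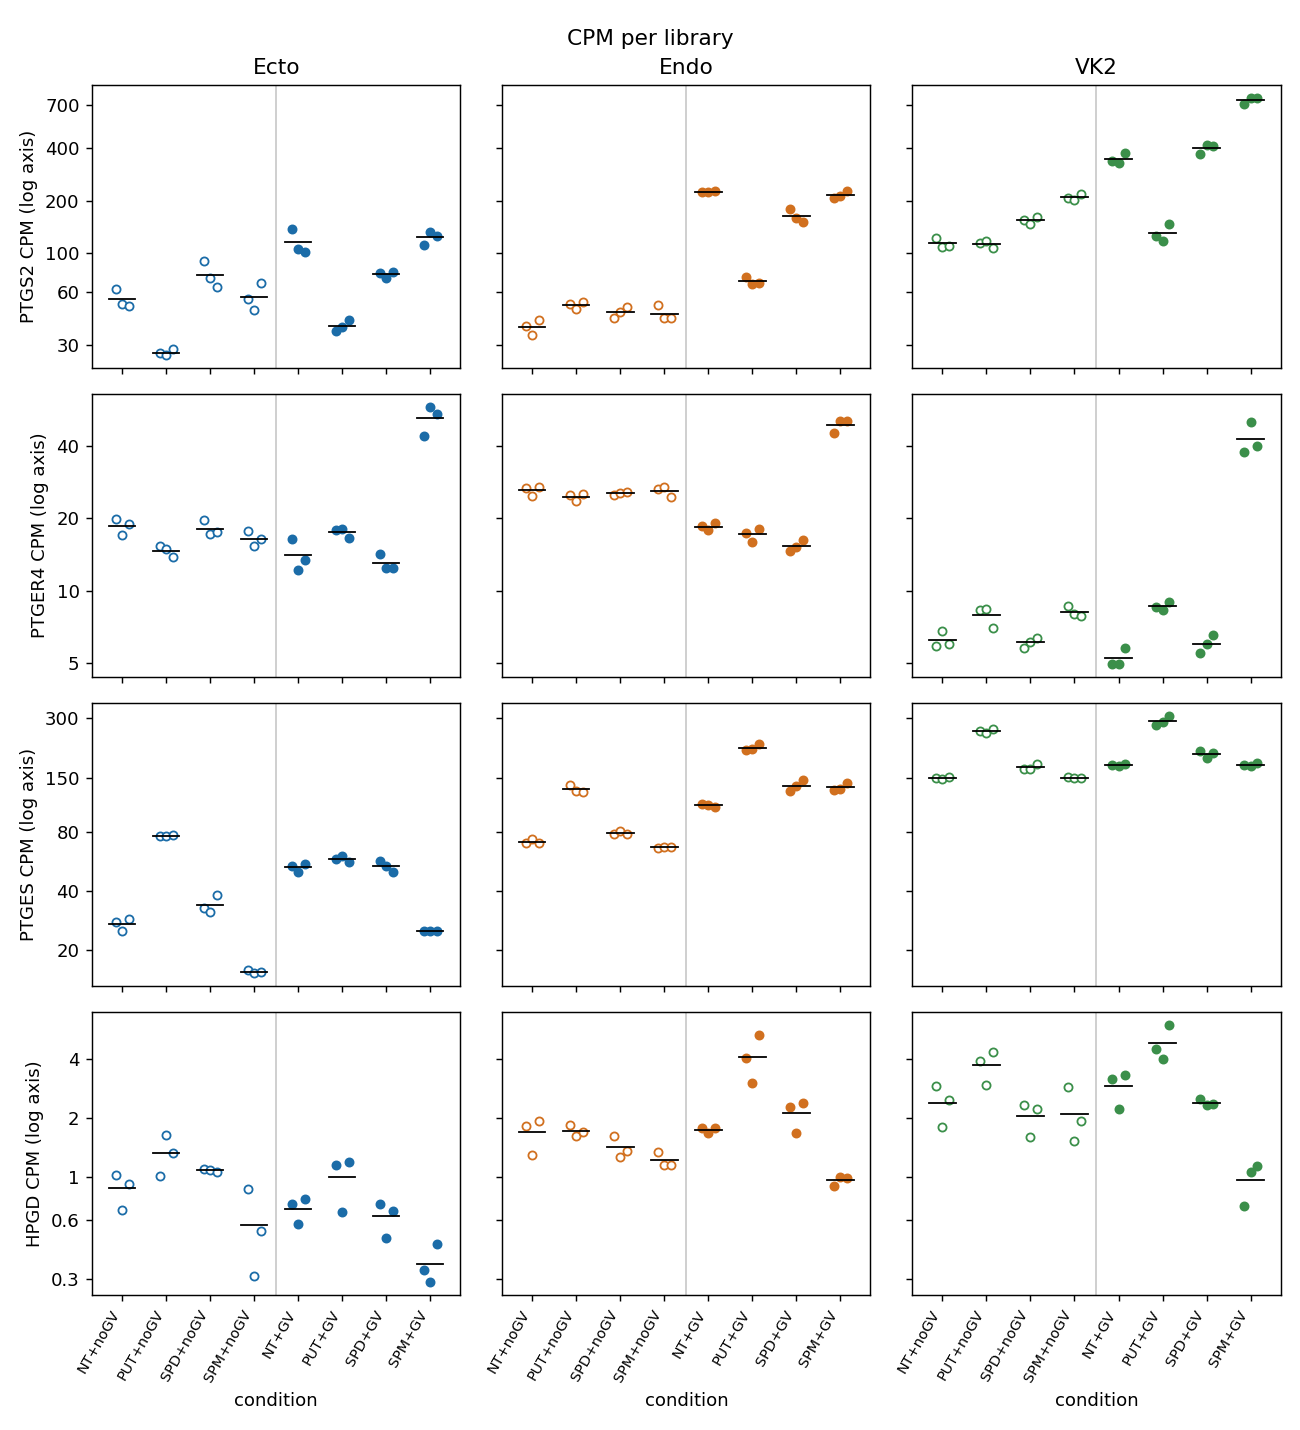
Level of PTGS2, PTGER4, PTGES and HPGD (rows) in each library of Ecto, Endo and VK2 (columns), in CPM on a log axis, with open points without bacteria, filled points with *G. vaginalis* and a line at the mean of the 3 libraries. PTGER4 in SPM+GV stands above every other group of its line, and PTGS2 is highest in the SPM+GV libraries of VK2.

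Among the terminal synthases, PTGES, the microsomal and inducible prostaglandin E synthase, rose with putrescine and with *G. vaginalis*. In Ecto, PTGES was at 27.7, 25.1 and 28.9 CPM in NT+noGV and at 75.8, 76 and 76.5 in PUT+noGV, a 2.83-fold rise without overlap (log2 1.5 ± 0.063, edgeR adjusted p = 3.05e-15). In Endo and VK2 the PUT+noGV libraries held 138, 129 and 127 and 259, 252 and 266 CPM, rises of 0.88 and 0.80 on the log2 scale (edgeR adjusted p = 3.52e-16 and 8.09e-17). With putrescine and no bacteria, 2 members changed in Ecto (7.44% of genes), none in Endo (1.93%, with DESeq2 none as well) and 1 in VK2 (5.34%), and by edgeR adjusted p alone 8 (46.8%), 5 (31.9%) and 5 (45%). Bacteria alone raised PTGES in Ecto to 53.8, 49.7 and 54.9 CPM (log2 0.94 ± 0.063, adjusted p = 8.26e-12), in Endo from 70.2, 73 and 69.99 to 110.0, 109 and 107 CPM (log2 0.62 ± 0.043, adjusted p = 1.18e-13) and in VK2 from 150.2, 148 and 152 to 174, 173 and 176 CPM (log2 0.23 ± 0.039, adjusted p = 2.44e-05). Putrescine before bacteria added to this in Endo and VK2, where PUT+GV held 207, 211 and 222 and 279, 287 and 309 CPM (log2 0.98 and 0.75 against NT+GV, edgeR adjusted p = 2.07e-18 and 6.32e-17). In Ecto the PUT+GV libraries held 58, 60.4 and 56.2 CPM, a rise of 0.19 (adjusted p = 0.00912) that was not called with DESeq2 (adjusted p = 0.0748), and the interaction of PUT and GV there was -1.31 ± 0.087 (adjusted p = 1.02e-10).

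Spermine lowered PTGES in Ecto, with and without bacteria. SPM+GV libraries of Ecto held 25, 25.1 and 25 CPM, less than any NT+GV library and 2.04-fold lower on average (log2 -1.03 ± 0.064, edgeR adjusted p = 4.8e-13), and SPM+noGV libraries held 15.9, 15.3 and 15.5 CPM (log2 -0.80 ± 0.068, adjusted p = 3.38e-09). Without bacteria, spermine changed no member in the 3 lines by the 2-fold rule (shares of all genes of 1.84%, 0.966% and 2.26% in Ecto, Endo and VK2), and by adjusted p alone it moved 4 (23.5%), 3 (18.1%) and 5 (33%) in edgeR. DESeq2 changed none there either, and without the first SPM+noGV library of Ecto 1 member changed, HPGD at -1.08. Endo did not follow Ecto: its SPM+GV libraries held 129.7, 132 and 140.3 CPM, above those of NT+GV (log2 0.31 ± 0.041, adjusted p = 2.74e-07). In VK2 the libraries overlapped, at 175, 171 and 179 CPM, with a log2 difference of 0.068 (-0.012 to 0.15, adjusted p = 0.141, or 0.0389 with DESeq2).

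The other prostaglandin E synthases moved less. PTGES2, a membrane-associated synthase, fell with PUT+GV against NT+GV by 0.78, 0.52 and 0.50 on the log2 scale in Ecto, Endo and VK2 (edgeR adjusted p = 1.19e-08, 7.23e-12 and 6.84e-12). The Ecto libraries went from 105, 100.5 and 98.9 to 58.6, 60.8 and 51.8 CPM, and in none of the lines did the groups overlap. Bacteria alone lowered PTGES2 in Ecto, from 141, 133 and 137 CPM (log2 -0.44 ± 0.078, adjusted p = 6.2e-05), whereas in Endo and VK2 the libraries with and without bacteria overlapped, in Endo at 88.3 to 95.1 CPM with and 87.2 to 96.1 CPM without. PTGES3, the cytosolic synthase, stood at 491, 499.5 and 462 CPM in NT+GV of Ecto and 310.2, 322 and 333 in PUT+GV (log2 -0.54 ± 0.05, adjusted p = 9.6e-10). In Endo it went from 396, 399.9 and 417 to 287, 289 and 304 CPM (log2 -0.46 ± 0.04, adjusted p = 2.78e-11). In VK2 the fall of PTGES3 was small, from 357 to 385 CPM in NT+GV to 337 to 347 in PUT+GV. Its log2 change there ran from -0.13 to -0.082 with 1 library left out, and the edgeR call was lost in 1 of 6 such refits. Thus PTGES and the other synthases went in opposite directions with PUT+GV in Endo and, with this small fall of PTGES3, in VK2. By symbol (the name followed by P and a number), PTGES3 has 5 annotated copies, which together held 0.0339% of its counts.

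HPGD, which inactivates prostaglandins, was the least abundant member, and its values rest on few counts. In Endo, HPGD was at 1.78, 1.67 and 1.79 CPM in NT+GV (53 to 58 counts per library) and at 4.04, 3.02 and 5.31 in PUT+GV (100 to 179 counts), a 2.37-fold rise without overlap (log2 1.24 ± 0.18, edgeR adjusted p = 5.85e-07). The PUT+GV libraries were widely spread, and without the third the log2 rise was 0.99, just under 2-fold. Putrescine without bacteria left HPGD in Endo at 1.84, 1.61 and 1.69 CPM, overlapping NT+noGV at 1.83, 1.3 and 1.94. The interaction of PUT and GV for HPGD in Endo was 1.22 ± 0.27 (adjusted p = 0.000484), or 0.97 without that library. In VK2 HPGD rose from 3.16, 2.22 and 3.33 to 4.5, 4.02 and 6.0 CPM (log2 0.72 ± 0.21, adjusted p = 0.00413). Spermine with bacteria moved it the other way: the VK2 SPM+GV libraries held 0.715, 1.06 and 1.14 CPM (19 to 26 counts per library), 2.94-fold lower than NT+GV (log2 -1.56 ± 0.27, adjusted p = 1.5e-05). In Endo HPGD fell with SPM+GV to 0.895, 0.997 and 0.99 CPM (log2 -0.85 ± 0.21, adjusted p = 0.00142). In VK2 spermine without bacteria gave overlapping libraries, at 2.88, 1.52 and 1.93 CPM against 2.93, 1.8 and 2.46 in NT+noGV, and the interaction of SPM and GV was -1.39 ± 0.35 (adjusted p = 0.0027). Bacteria alone gave overlapping HPGD libraries in all 3 lines. HPGD shares 314 exon bases with an unnamed gene on the opposite strand whose counts came to 1.01% of those of HPGD.

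PTGER4, the EP4 receptor, had the largest rise of any member in the polyamine comparisons, and the rise with spermine was larger in the presence of bacteria than in their absence. In VK2, PTGER4 was at 4.96, 4.94 and 5.77 CPM in NT+GV and at 37.9, 50.2 and 40.05 in SPM+GV, 8.47-fold higher (log2 3.08 ± 0.097, edgeR adjusted p = 1.71e-22). In Ecto it went from 16.4, 12.2 and 13.4 to 43.8, 58.2 and 54.5 CPM, 3.85-fold (log2 1.94 ± 0.098, adjusted p = 1.51e-14). In Endo it went from 18.5, 17.8 and 19.1 to 45.4, 50.7 and 50.8 CPM, 2.67-fold (log2 1.41 ± 0.058, adjusted p = 9e-19). In all 3 lines every SPM+GV library lay above every other library of the line. Spermine without bacteria left PTGER4 close to the untreated level, at 17.7, 15.3 and 16.4 CPM in Ecto and 26.3, 26.8 and 24.4 in Endo, overlapping NT+noGV in both. In VK2 it was 8.66, 7.99 and 7.86 CPM against 5.86, 6.76 and 6.0 (log2 0.42 ± 0.11, adjusted p = 0.00232). In Ecto the interaction of SPM and GV for PTGER4 was 2.12 ± 0.14, compared with 1.43 ± 0.082 in Endo and 2.66 ± 0.15 in VK2 (edgeR adjusted p = 1.26e-11, 1.86e-14 and 2.71e-15). By this interaction, 1 member changed in Ecto (8.9% of genes), 1 in Endo (3.07%) and 2 in VK2 (5.8%). The 2 copies of PTGER4 found by symbol in the same way together held 0.587% of its counts.

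*G. vaginalis* without a polyamine lowered PTGER4 in the cervical lines. Ecto went from 19.8, 17 and 18.9 to 16.4, 12.2 and 13.4 CPM (log2 -0.42 ± 0.1, edgeR adjusted p = 0.00145) and Endo from 26.7, 24.7 and 27.1 to 18.5, 17.8 and 19.1 CPM (log2 -0.50 ± 0.06, adjusted p = 2.42e-08), with no overlap in either. With putrescine and bacteria the levels were 17.9, 18 and 16.5 CPM in Ecto (log2 0.37 against NT+GV, adjusted p = 0.00333) and 8.53, 8.27 and 8.95 in VK2 (log2 0.71, adjusted p = 1.19e-06), and the Endo libraries of PUT+GV and NT+GV overlapped.

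PTGER2, the EP2 receptor, was marked by opposite responses to bacteria in the cervical lines. In Ecto it rose from 1.68, 1.93 and 1.99 to 3.58, 3.96 and 3.79 CPM (log2 1.01 ± 0.13, edgeR adjusted p = 8.92e-07), while in Endo it fell from 8.1, 7.58 and 7.87 to 4.47, 5.4 and 4.39 CPM (log2 -0.71 ± 0.098, adjusted p = 2.31e-07). Neither pair of groups overlapped. The rise in Ecto was 0.93 without the first NT+noGV library and 0.97 without the second NT+GV library, both just under 2-fold. Putrescine without bacteria raised PTGER2 in all 3 lines, to 4.59, 4.74 and 4.18 CPM in Ecto, 12.4, 12 and 12.1 in Endo and 9.85, 10.3 and 10.2 in VK2. The log2 rises were 1.3 ± 0.13, 0.63 ± 0.088 and 1.06 ± 0.11 (edgeR adjusted p = 1.03e-08, 1.3e-06 and 1.18e-09). With bacteria as well, putrescine gave 8.24, 8.0 and 6.94 CPM in Endo and 7.42, 8.3 and 8.09 in VK2, above NT+GV in both (log2 0.70 and 0.93, edgeR adjusted p = 2.63e-07 and 1.62e-08). In Ecto PUT+GV held 4.2 to 5.09 CPM against 3.58 to 3.96 in NT+GV. That rise ran from 0.29 to 0.47 with 1 library left out, and its edgeR call was lost in 1 of 6 such refits. The interaction of PUT and GV for PTGER2 in Ecto ran from -0.98 to -0.83, with the call kept in each such refit.

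Spermidine and spermine were given at the same dose, 400 µM, and for the same time, and were the 1 pair of compounds compared. They differ by 1 aminopropyl group, which spermine has in addition. With bacteria, SPM+GV against SPD+GV changed 2 members in Ecto (13% of genes), 2 in Endo (6.78%) and 3 in VK2 (8.77%), and by adjusted p alone 5 (53.8%), 6 (44.6%) and 7 (52.6%). PTGER4 was higher with spermine than with spermidine by 2.04 in Ecto (95% interval 1.84 to 2.24), by 1.68 in Endo (1.56 to 1.8) and 2.9 in VK2 (2.72 to 3.09) on the log2 scale, with edgeR adjusted p of 8.95e-15, 2.28e-20 and 3.34e-22. The SPD+GV libraries of this gene stood at 14.1, 12.4 and 12.5 CPM in Ecto, 14.6, 15.1 and 16.3 in Endo and 5.5, 5.96 and 6.51 in VK2. PTGS1 was lower with spermine in all 3 lines, by 0.43, 0.70 and 1.29 (95% intervals of the differences -0.57 to -0.29, -0.83 to -0.57 and -1.42 to -1.16; edgeR adjusted p = 6.81e-06, 1.97e-10 and 2.44e-17). PTGS2 was higher with spermine in all 3 lines, by 0.74 (0.44 to 1.03), 0.40 (0.25 to 0.55) and 0.99 (0.84 to 1.14), with edgeR adjusted p of 0.00023, 0.000136 and 6.29e-10. HPGD was lower with spermine in Endo by 1.14 and in VK2 by 1.26 (edgeR adjusted p = 3.74e-05 and 0.000298), and in Ecto the difference was -0.77 (-1.46 to -0.089) and did not pass (adjusted p = 0.0522). PTGES was lower with spermine in Ecto by 1.06 ± 0.064 (adjusted p = 3.56e-13), whereas in Endo the difference was -0.03 with an interval of -0.11 to 0.053 (adjusted p = 0.58), which leaves out a change of 2-fold.

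Without bacteria the 2 compounds were closer. SPM+noGV against SPD+noGV changed 1 member in Ecto (1.59% of genes), none in Endo (0.688%) and none in VK2 (1.65%), and by adjusted p alone 3 (20.4%), 3 (12.6%) and 5 (28.3%). The PTGER4 difference was -0.12 in Ecto (95% interval -0.33 to 0.089, adjusted p = 0.446) and 0.025 in Endo (-0.095 to 0.14, adjusted p = 0.854), neither passing the test, and 0.44 in VK2 (0.22 to 0.66, adjusted p = 0.00183). For PTGS2 it was -0.40 in Ecto (-0.70 to -0.10, adjusted p = 0.0585, or 0.0131 with DESeq2), -0.021 in Endo (-0.20 to 0.15, adjusted p = 0.915) and 0.45 in VK2 (0.30 to 0.61, adjusted p = 0.000113). Without the first SPM+noGV library of Ecto, HPGD changed as well, at -1.35 in place of -0.93. PTGES in Ecto was the 1 member that changed, 15.9, 15.3 and 15.5 CPM with spermine against 32.6, 31.2 and 38.2 with spermidine (log2 -1.09 ± 0.068, adjusted p = 3.13e-11). Against NT+noGV, spermidine changed no member in any line (0.0103%, 0.00534% and 0.0379% of all genes). By adjusted p alone 1 (0.303%), 0 (0.181%) and 2 (0.46%) were called by edgeR. At an unadjusted p under 0.05 the numbers of members were 4 in Ecto, 2 in Endo and 6 in VK2. DESeq2 called 2, 1 and 2 members there at an adjusted p under 0.05. No shares of all genes are given for the unadjusted and DESeq2 counts, so they are not read as a result about the members. Putrescine was given at another dose, so its values stand beside these without a comparison. Its PUT+GV libraries, for example, held 16.5 to 18 CPM of PTGER4 in Ecto, 15.9 to 18.1 in Endo and 8.27 to 8.95 in VK2.

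**Figure D4:**
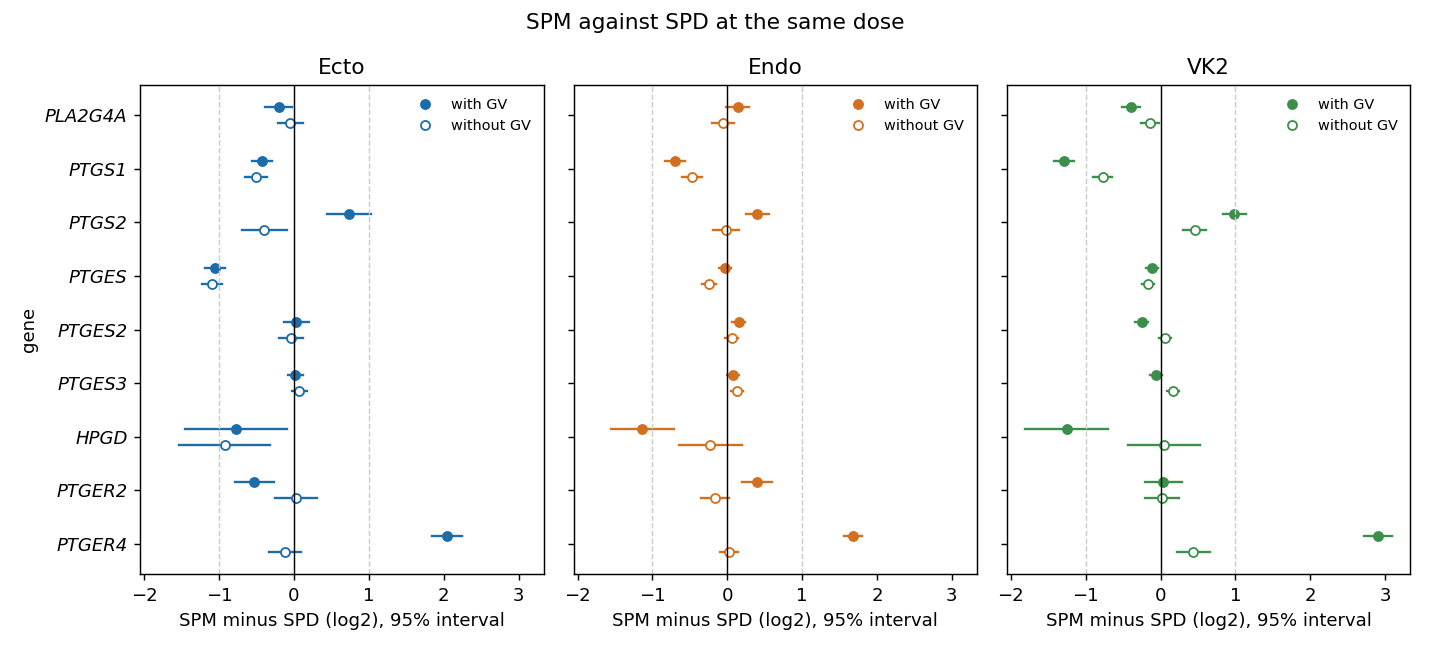
Log2 difference of SPM minus SPD for each member in Ecto, Endo and VK2, with filled points in the presence of *G. vaginalis*, open points in its absence, bars for the 95% interval from edgeR and dashed lines at 2-fold in either direction. The filled PTGER4 points lie at 2.04, 1.68 and 2.9, while the open ones lie at -0.12, 0.025 and 0.44.

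Differences between the lines in these responses were tested in the model of all 72 libraries. For *G. vaginalis* alone, 2 members differed between Endo and Ecto by at least 2-fold (4.25% of genes), 1 between VK2 and Ecto (3.44%) and none between VK2 and Endo (3.59%). The rise of PTGS2 was larger in Endo than in Ecto by 1.49 ± 0.15 on the log2 scale (edgeR adjusted p = 4.24e-11) and larger in Endo than in VK2 (VK2 minus Endo -0.97 ± 0.15, adjusted p = 1.27e-06). This last difference was -1.12 and so past 2-fold without the third library of each group. The response of PTGER2 differed by -1.74 ± 0.16 between Endo and Ecto (adjusted p = 2.28e-13). For PUT+GV no member differed by 2-fold between any of the lines (2.92% of genes between Endo and Ecto, 6.62% between VK2 and Ecto, 3.51% between VK2 and Endo), nor for SPD+GV (0.033%, 0.25% and 0.0849%). By an edgeR adjusted p under 0.05 alone, 4, 6 and 4 members differed for PUT+GV and 2, 2 and 1 for SPD+GV, against 24.8%, 35% and 22.4% and against 0.722%, 5.16% and 1.13% of genes. With SPM+GV, 1 member differed between Endo and Ecto (4.45%), 4 between VK2 and Ecto (6.12%) and 2 between VK2 and Endo (4.07%). Without the first library of each group the count between VK2 and Ecto was 2, the differences of PTGS2 and PTGER4 being 0.83 and 0.92. PTGER4 rose more in VK2 than in Endo by 1.61 ± 0.13 (adjusted p = 1.65e-15). PTGS2 responded more in VK2 than in Endo by 1.19 ± 0.14 (adjusted p = 3e-09), and the response of PTGES was higher in Endo than in Ecto by 1.38 ± 0.071 (adjusted p = 2.87e-24).

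The rest of the pathway was covered by 6 lists of 68 genes in the table: other prostanoid synthases, other prostanoid receptors, transport and breakdown, release and re-esterification of arachidonic acid, the lipoxygenase branch and the coupling of EP2 and EP4 to cyclic AMP. Of these, 51 could be tested in Ecto, 51 in Endo and 55 in VK2. With *G. vaginalis* alone 11 rose and 12 fell in Ecto, 20 rose and 15 fell in Endo, and 20 rose and 2 fell in VK2 by edgeR adjusted p. Of all genes tested, 20.9%, 25.7% and 13.9% rose and 23.7%, 28.7% and 12.5% fell in the same order of lines. With PUT+GV against NT+GV 16 rose and 16 fell in Ecto, 10 and 18 in Endo, and 10 and 22 in VK2. Of all genes, 31.5%, 27.9% and 29% rose and 24.9%, 28.2% and 31.4% fell. With SPM+GV against NT+GV 9 rose and 29 fell in Ecto, 10 and 24 in Endo, and 11 and 29 in VK2, beside 28.5%, 21.9% and 27.9% of all genes that rose and 27.5%, 21.1% and 30.3% that fell. Medians of the lists under SPM+GV were negative for transport and breakdown (-0.56, -0.21 and -0.48 in Ecto, Endo and VK2) and for arachidonate release (-0.33, -0.14 and -0.24), beside -0.017, -0.012 and -0.017 for all genes. They were also negative for the lipoxygenase branch (-0.21, -0.14 and -0.57, over 3, 5 and 5 tested genes). The other lists had medians of both signs, -0.19, 0.075 and 0.10 for the other synthases, 0.78, 0.86 and -0.35 for the other prostanoid receptors (2, 2 and 5 tested genes) and -0.048, 0.064 and -0.11 for the coupling of EP2 and EP4.

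The list of arachidonate release held the other cytosolic phospholipases A2, and 2 of them changed with bacteria in all 3 lines. PLA2G4C rose with *G. vaginalis* by 1.5 ± 0.32, 3.14 ± 0.33 and 1.51 ± 0.32 on the log2 scale (SE) in Ecto, Endo and VK2 (edgeR adjusted p = 0.000436, 1.24e-09 and 0.000503). PLA2G4E rose by 2.97 ± 0.34, 2.11 ± 0.17 and 1.37 ± 0.19 in the same order (edgeR adjusted p = 1.05e-07, 5.94e-12 and 1.68e-06). PLA2G4A itself moved by less than 2-fold with bacteria in each line. Levels of PLA2G4C and PLA2G4E are not given here, so their larger log2 changes are not read as larger amounts of RNA. The secreted phospholipase PLA2G2A was at 0 in all NT+GV libraries and had means of 1.19, 0.537 and 0.344 CPM in SPM+GV of Ecto, Endo and VK2. It was called changed with SPM+GV in Ecto and Endo but not in VK2, and in Endo with SPM+noGV as well. At such levels these calls rest on few counts. Among the prostanoid receptors, PTGER3, the EP3 receptor that lowers cyclic AMP, had higher means in SPM+GV than in NT+GV in all 3 lines. The level of PTGER3 was far lower than that of PTGER4. It may have passed the filter on low counts only through the groups where it was high. Its adjusted p values are therefore not taken as support. Its mean went from 0.134 to 0.726 CPM in Ecto (log2 2.46, adjusted p = 8.14e-05) and from 0.0826 to 0.612 in Endo (log2 2.83, adjusted p = 0.000114). In VK2 it went from 0 to 0.505 (log2 6.96, adjusted p = 3.93e-06), where the size of the log2 value rests on the mean of 0. In VK2 the gene was higher with PUT+GV as well (log2 4.62, adjusted p = 0.00728). PTGER3 was also higher in Ecto with PUT+noGV (log2 2.59, adjusted p = 0.00278), where PTGER4 fell (log2 -0.33, adjusted p = 0.00976). The thromboxane receptor TBXA2R rose with *G. vaginalis* in Endo by 2.08 ± 0.33 (SE, adjusted p = 2.21e-06). Among the other synthases, AKR1C3, which reduces prostaglandins D2 and H2, rose with putrescine without bacteria by 1.17 in Ecto and 1.1 in VK2 (edgeR adjusted p = 2.58e-07 and 2.22e-10). SLCO2A1, the carrier that takes prostaglandins into cells for breakdown by HPGD, fell with SPM+GV in Ecto by 1.45 ± 0.39 (SE, adjusted p = 0.00246). Of the 10 tested genes that couple EP2 and EP4 to cyclic AMP, none changed by 2-fold with GV, PUT+GV or SPM+GV in any line, though 3, 5 and 3 had an adjusted p under 0.05 in edgeR with *G. vaginalis* alone in Ecto, Endo and VK2.

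The genes whose pattern was most like that of a member were found over the 24 group means, centred within each line, among 14049 genes, as a description without a test. For PTGS2 they were EREG (Pearson r = 0.931), TNFAIP3 (0.917), RELB (0.908), IL1A (0.907) and TNIP1 (0.900). For PTGER4 they were ZNF281 (0.914), NOCT (0.912), SIX4 (0.908), RNF43 (0.908) and SIRT1 (0.907), and for PTGES they were PLCD4 (0.902), OXTR (0.902), NOL4L (0.892), SLC25A45 (0.891) and CRYBG2 (0.887). HPGD was most like RALGPS1 (0.918), PDK2 (0.901), GCNT3 (0.888), ASB9 (0.886) and MYH15 (0.885). The 24 points share cell lines, sequencing and the scaling of the libraries.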

How the data were processed

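Gene counts were analysed for all 72 libraries. Per the labels and the study's methods, the authors sequenced ribosomal RNA-depleted, strand-specific CORALL libraries carrying molecular identifiers, quantified them with Salmon on GENCODE 44 (GRCh38.p13 in the processing notes, which also name R 4.32 as written there) and deposited estimated counts per gene, summed from transcripts and already whole numbers, with no normalization. Whether duplicates were removed by the identifiers is not given in the sources used here. Groups came from the sample labels, and the counts were read as deposited. Library totals ran from 20152143 to 42767996 counts, and precision at low levels is limited by counting error.

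The test of the counts was that of edgeR 4.0.16, run in R 4.3.3 (scaling by trimmed mean of M values, filterByExpr, robust quasi-likelihood fit), in 1 model per line of 24 libraries for 12 comparisons and in 1 model of 72 libraries for 15 comparisons between lines, without a replicate block. The adjusted p is Benjamini-Hochberg over all genes tested in a comparison (19459 in Ecto, 18741 in Endo, 18474 in VK2 and 21195 over all lines), two-sided, at 0.05. The intervals are 95% intervals from the fitted log2 change and its standard error, and CPM are counts scaled to 1000000 per library over all 72 libraries. Promoter sequences were RefSeq's on GRCh38.p14, and 9 of 9 members had at least 1. The fit was tested on simulated data. Alternatives were DESeq2 1.42.0 size factors, its test, no filter, the replicate block, each library left out and other thresholds. The members, the lists of other pathway genes and the markers were chosen with earlier results of these data known, and 1 marker is not reported here. All members are named, and from each other list no more than 3 changed genes of a comparison, those with the lowest adjusted p, could be named.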

Additional observations from a re-analysis of the deposited data

Results flagged for a closer look

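A test of the difference itself found 10 responses of members that differed at least 2-fold between lines, of 108 such tests (9 members, 4 responses, 3 pairs of lines), all with edgeR in the model of 72 libraries. No group of 3 libraries was tested for outliers.

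In response to *G. vaginalis* alone, the rise of PTGS2 in Endo exceeded that in Ecto by 1.49 ± 0.15 on the log2 scale (SE, adjusted p = 4.24e-11). PTGER2 responded in opposite directions in Ecto and Endo, a difference of -1.74 ± 0.16 for Endo minus Ecto (adjusted p = 2.28e-13), and of -1.25 ± 0.17 for VK2 minus Ecto (adjusted p = 2.9e-08).

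In response to SPM+GV against NT+GV, PTGES fell in Ecto but not in the other lines, and the difference was 1.38 ± 0.071 for Endo minus Ecto (adjusted p = 2.87e-24) and 1.08 ± 0.07 for VK2 minus Ecto (adjusted p = 4.43e-20). PTGS2 responded more in VK2 than in Ecto by 1.03 ± 0.14 (adjusted p = 8.11e-08), which was 0.83 without the first library of each group, and more than in Endo by 1.19 ± 0.14 (adjusted p = 3e-09). The response of PTGS1 was lower in VK2 than in Ecto, at -1.1 ± 0.095 (adjusted p = 4.8e-15), and at -0.95 with no filter on low counts. PTGER4 rose more in VK2 than in Ecto by 1.13 ± 0.13 (adjusted p = 3.79e-10), or 0.92 without the first library of each group, and more than in Endo by 1.61 ± 0.13 (adjusted p = 1.65e-15). The causes of these differences were not tested.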

How the results depend on the processing

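Of 246 member values with an edgeR adjusted p under 0.05, none reversed under any alternative run, and 5 lost the call with DESeq2 size factors, 12 with no filter, 9 with the DESeq2 test and 1 with the replicate block. Leaving out single libraries lost it in 149 of 1458 refits, spread over 50 of the values. The 2 other thresholds moved the counts most, by construction. For a log2 change of at least 2 no shares of all genes are given, so those counts are not read as a result about the members. With an adjusted p under 0.05 alone, the numbers of members in Ecto, Endo and VK2 were 6, 7 and 4 for GV, 8, 7 and 8 for PUT+GV, 3, 4 and 3 for SPD+GV, 5, 6 and 6 for SPM+GV, 8, 5 and 5 for PUT+noGV, 1, 0 and 2 for SPD+noGV, 4, 3 and 5 for SPM+noGV, 5, 6 and 7 for SPM against SPD with bacteria, 3, 3 and 5 for SPM against SPD without bacteria, 6, 6 and 3 for the interaction of PUT, 3, 2 and 0 for the interaction of SPD, and 5, 5 and 7 for the interaction of SPM. Between lines (Endo against Ecto, VK2 against Ecto, VK2 against Endo) they were 8, 9 and 8 for untreated levels, 7, 6 and 4 for GV, 4, 6 and 4 for PUT+GV, 2, 2 and 1 for SPD+GV, and 7, 6 and 6 for SPM+GV. With a log2 change of at least 2 the numbers in Ecto, Endo and VK2 were 0, 1 and 0 for GV, 0, 0 and 0 for PUT+GV, 0, 0 and 0 for SPD+GV, 0, 0 and 1 for SPM+GV, 0, 0 and 0 for PUT+noGV, 0, 0 and 0 for SPD+noGV, 0, 0 and 0 for SPM+noGV, 1, 0 and 1 for SPM against SPD with bacteria, 0, 0 and 0 for SPM against SPD without bacteria, 0, 1 and 0 for the interaction of PUT, 0, 0 and 0 for the interaction of SPD, and 1, 0 and 1 for the interaction of SPM, and between lines they were 1, 1 and 1 for untreated levels, 0, 0 and 0 for GV, 0, 0 and 0 for PUT+GV, 0, 0 and 0 for SPD+GV, and 0, 0 and 0 for SPM+GV. Of all genes, the shares with an adjusted p under 0.05 were 26.4%, 34.8% and 27.6% for the interaction of PUT in Ecto, Endo and VK2, 3.13%, 3.45% and 0.352% for that of SPD and 36.3%, 24.3% and 38.9% for that of SPM, and between lines 63.9%, 63.8% and 59.6% for untreated levels, 28%, 27.5% and 25.8% for GV and 25.8%, 31.6% and 24.6% for SPM+GV.

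With 1 library left out at a time (between lines, the same-numbered library of every group), the number of members changed ranged from 1 to 2 in Ecto for GV, 0 to 1 for SPM+noGV, 1 to 2 for SPM against SPD without bacteria and 0 to 1 for the interaction of SPD, from 1 to 2 in Endo for PUT+GV and for the interaction of PUT, from 2 to 4 between VK2 and Ecto for SPM+GV, and from 0 to 1 between VK2 and Endo for GV. Of values that did not pass the test, PTGES for SPM against SPD with bacteria in Endo ranged from -0.065 to 0.017, and PTGS2 without bacteria in Endo from -0.11 to 0.036, both across 0. Of the 213 member values that did not pass, 4 passed with DESeq2 size factors, 11 with no filter, 10 with the DESeq2 test, 8 with the replicate block and 27 with some library left out. Among the 10 was PTGS2 in Ecto for SPD+noGV, at 0.47 (adjusted p = 0.0189) against 0.46 in edgeR (adjusted p = 0.173). The causes of these moves were not tested.

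Same-numbered libraries did not deviate together in every pair: the lowest correlations of a pair in Ecto, Endo and VK2 were -0.116, -0.0467 and -0.0051, and in 0 of 9 comparisons per line did every pair exceed 0.1, so the numbers were not taken as pairs. The fit with the replicate block lost 1 call, PTGS2 with SPM+noGV in Endo at 0.26 (adjusted p = 0.0504), and made 8, all with a change under 2-fold, among them HPGD for SPM against SPD with bacteria in Ecto at -0.76 (adjusted p = 0.0427). HPGD is the member most limited by depth.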
